A study of Arabidopsis thaliana with 16 samples.

Results

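Transcript levels of 7 Arabidopsis genes that act in chromosome segregation or DNA replication were followed through the compartments of the heart-stage seed. They are the kinase genes AUR1 (AT4G32830) and AUR2 (AT2G25880), the checkpoint gene BUBR1 (AT2G33560), the kinesin genes AT3G44050 and AT5G60930, the chromosome protein gene 3xHMG-box2 (AT4G23800) and the helicase gene PRL (AT4G02060). Each was taken as the probe set that names it in the platform annotation, which gave 7 of 22746 Arabidopsis probe sets, 1 for each gene. All 7 were among the 19475 probe sets bright enough to be tested. The genes had been picked from earlier results of these same arrays: 3xHMG-box2 and both kinesin genes for a large excess in endosperm over seed coat, and AUR1, AUR2, BUBR1 and PRL as the tested members of gene lists on mitosis and replication. That excess is therefore described below and not tested.

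The material was Arabidopsis thaliana of the Ws-0 background, with no mutant or treated group, from plants 38 to 46 days old grown in continuous light. Regions were cut by laser capture microdissection from paraffin sections of fixed seeds with embryos 52 to 85 micrometres long, and 5 to 6 ng of RNA per sample was amplified for 1 Affymetrix ATH1 array. There were 16 arrays in 7 groups. Pairs of arrays covered the embryo proper, the endosperm beside it (micropylar), the endosperm along the seed wall (peripheral), the seed coat and whole seeds. Sets of 3 covered the endosperm and the seed coat of the chalazal pole, through which the mother plant feeds the seed. The labels name biological replicates but not the plants behind each array, so p-values measure the spread between these arrays, which may be partly technical. Because each sample was amplified RNA from a cut region, fewer dividing cells and less RNA per cell cannot be told apart.

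In a dividing plant cell, DNA is first copied by a replication fork whose helicase is a ring of MCM proteins, and the copies are then pulled apart on a microtubule spindle. Aurora kinases phosphorylate histone H3 and spindle proteins in mitosis, and the spindle checkpoint holds the cell until every chromosome is attached. Kinesins move along or reshape microtubules. The early endosperm divides as a syncytium, without walls between its nuclei, and becomes cellular from the micropylar end towards the chalazal end, where a multinucleate cyst can persist.

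Signals are on the linear scale of the deposited table, and a probe set is called at background where it lay at or under the 95th percentile of the 27 Bacillus control probe sets of its array. This bound ranged from 31.1 to 161 between arrays, and between 44.7% and 71.1% of an array's Arabidopsis probe sets exceeded it. The chalazal endosperm arrays had bounds of 161, 109 and 54.8 and the largest median SD between replicates, 0.70 on the log2 scale. This SD was 0.64 for the other group of 3 arrays and 0.28 to 0.43 for the groups of 2. Log2 levels and differences were computed from log2(signal + 30.1751) and centred on each array's median, so a difference of low signals is understated. For GAPDH the ratio of 3' to 5' control signals was 3.49 to 24.7 over the arrays. The compartment labels were compared with markers. The summed signal of 5 embryo markers was 4630 to 4772 in the embryo proper and at most 3743 elsewhere, that maximum being in the chalazal seed coat. Of these markers LHW was higher in the chalazal seed coat (mean log2 level 11.24) than in the embryo proper (10.61). BBM, PHV and CR4 were lower there and CLV3 was at background. The summed signal of 5 seed coat markers was 69747 to 76477 in the seed coat and 24867 to 31702 at its chalazal end. The embryo and endosperm groups had 649 to 7063. BAN, DFR, ARA12 and BETA-VPE were each higher in the chalazal seed coat than in those groups. DELTA-VPE was not, at a mean log2 level of 7.95 against 7.99 in the embryo proper and 11.11 in the micropylar endosperm. The 5 endosperm markers did not set the endosperm apart, with sums of 1001 to 2100 in the 3 endosperm regions, 1185 to 1342 in the embryo proper and 1176 to 2024 in the chalazal seed coat.

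AUR1, which encodes an Aurora kinase of the mitotic spindle, had signals of 1207 and 1327 in the embryo proper, 3697 and 1346 in the micropylar endosperm and 2195 and 1344 in the peripheral endosperm. In the chalazal endosperm it had 488, 1245 and 814, and in whole seeds 599 and 487. The chalazal seed coat gave 36.4, 3.67 and 91.2 and the seed coat 8.13 and 46.8, all at background except the value of 91.2. Every embryo and endosperm array thus lay above every seed coat array, and the lowest of them, chalazal endosperm replicate 1, was at the level of whole seeds. In the order of the mean log2 levels, micropylar (11.22 ± 1.20, SD, n = 2) and peripheral endosperm (10.83 ± 0.47) overlapped, as did the embryo proper (10.22 ± 0.12) and the chalazal endosperm (10.02 ± 0.78, n = 3).

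AUR2, the closely related kinase gene, read 1746 and 1845 in the embryo proper, 2284 and 1459 in the micropylar endosperm and 1670 and 737 in the peripheral endosperm. The chalazal endosperm read 826, 368 and 466, and whole seeds 441 and 460. Signals in the chalazal seed coat were 138, 7.25 and 27.5 and in the seed coat 118 and 7.19, with the values of 138 and 118 above background. The embryo proper, the micropylar and the peripheral endosperm overlapped in rank order, the peripheral overlapped the chalazal endosperm, and both seed coat regions overlapped each other. Mean log2 levels were 10.71 ± 0.08 (SD, n = 2) in the embryo proper, 10.93 ± 0.63 and 10.22 ± 0.79 in the micropylar and peripheral endosperm, and 9.44 ± 0.44 (n = 3) in the chalazal endosperm.

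BUBR1 encodes a kinase-related protein of the spindle checkpoint. Its signals were 697 and 1121 in the embryo proper, 420 and 339 in the micropylar endosperm, 520 and 313 in the peripheral endosperm and 118 and 239 in whole seeds. In the chalazal endosperm they were 76.3, 23.2 and 38.7, all at background, as were all seed coat values, 45.7, 39.8 and 49.3 at the chalazal end and 18.2 and 10.4 elsewhere. Both embryo arrays were above every array of every other group for BUBR1 and, in linear signals, for PRL. On the centred log2 scale BUBR1 alone of the 7 genes showed this. Its mean log2 level was 9.72 ± 0.50 (SD, n = 2) in the embryo proper against 8.82 ± 0.46 in the peripheral endosperm, the next in order. BUBR1 was also the one gene at background on every chalazal endosperm array.

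The kinesin gene AT3G44050 gave 6338 and 6175 in the embryo proper, 7165 and 6329 in the micropylar endosperm and 5048 and 4340 in the peripheral endosperm. The chalazal endosperm gave 2591, 4414 and 3464, and whole seeds 1079 and 865. The chalazal seed coat gave 91.6, 299 and 212, the last 2 above background, while both seed coat arrays were at background. All embryo and endosperm arrays were therefore above all whole-seed arrays, which were in turn above all seed coat arrays. The log2 levels in the embryo proper (12.50 on both arrays), the micropylar (12.80 ± 0.31) and the peripheral endosperm (12.26 ± 0.13) lay close together, and the chalazal endosperm (12.08 ± 0.51, n = 3) overlapped the peripheral.

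AT5G60930, the other kinesin gene, had signals of 3045 and 4153 in the embryo proper, 5031 and 3784 in the micropylar endosperm and 3567 and 2702 in the peripheral endosperm. It had 1645, 1807 and 1867 in the chalazal endosperm and 510 and 357 in whole seeds. In the chalazal seed coat it had 180, 124 and 179, of which 180 and 179 were above background, and in the seed coat 15.4 and 7.68, both at background. The order was the same as for AT3G44050. All 3 chalazal seed coat arrays were above both seed coat arrays, at mean log2 levels of 7.47 ± 0.39 (n = 3) and 5.34 ± 0.13 (n = 2). For AT3G44050 this held on the centred log2 scale but not in linear signals (91.6 in the chalazal seed coat against 100 in the seed coat).

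3xHMG-box2 encodes a protein with HMG boxes that binds chromosomes during mitosis. Its signals were 11741 and 13655 in the embryo proper, 12084 and 12360 in the micropylar endosperm and 11921 and 7715 in the peripheral endosperm, which put it at percentiles of 98.3 to 99.5 among the Arabidopsis probe sets of these arrays. In the chalazal endosperm they were 314, 393 and 781, and in whole seeds 1773 and 907. The chalazal seed coat had 71.6, 5.39 and 114 and the seed coat 89.3 and 45.8, with the value of 114 alone above background. The chalazal endosperm arrays lay far below the other endosperm arrays and above every seed coat array. On the centred log2 scale they overlapped the whole seeds, at means of 9.27 ± 0.76 (SD, n = 3) and 10.01 ± 0.72 (n = 2).

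PRL encodes MCM7, a subunit of the replicative helicase, and its pattern differed from the others in the seed coat. Signals were 2611 and 3853 in the embryo proper, 2488 and 2179 in the micropylar endosperm and 1246 and 1813 in the peripheral endosperm. The chalazal endosperm had 314, 171 and 364, the chalazal seed coat 273, 425 and 1004, the seed coat 370 and 541, and whole seeds 793 and 1476. PRL was above background on all 16 arrays, and it was the one gene of the 7 with its lowest group mean in the chalazal endosperm (8.57 ± 0.50 on the log2 scale, n = 3). That mean overlapped those of the chalazal seed coat (8.93 ± 0.77) and the seed coat (8.87 ± 0.42).

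**Figure D1:**
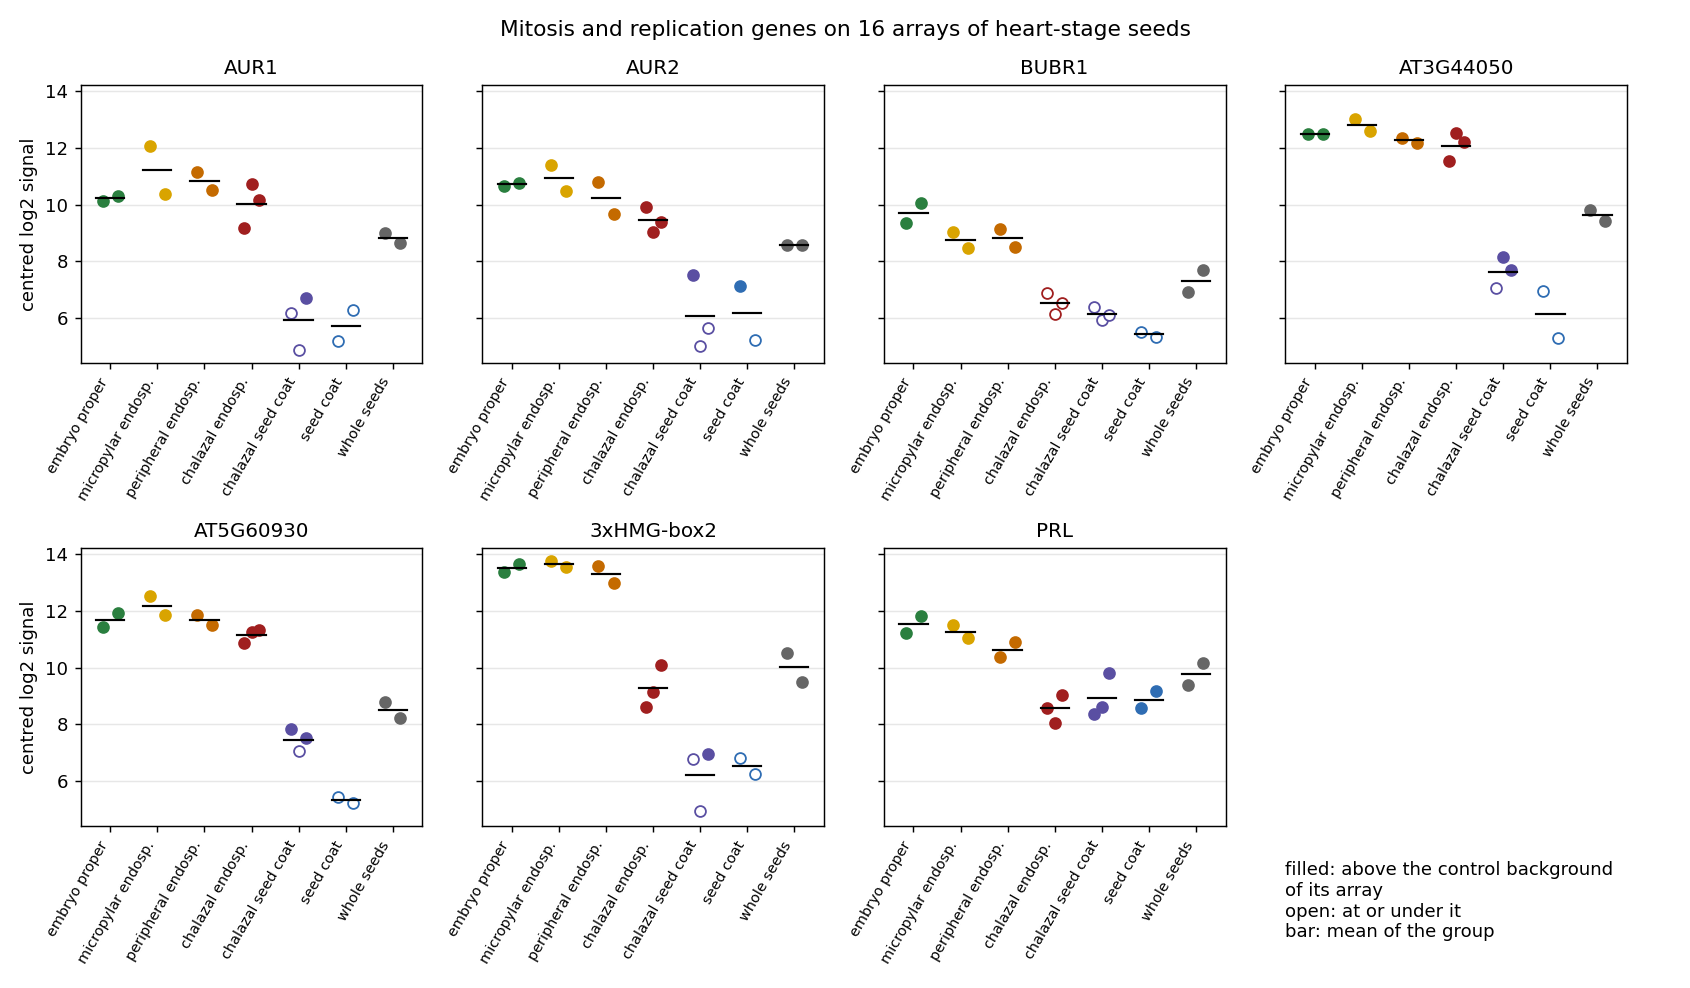
Centred log2 signal of each of the 7 genes (vertical axis, same scale in all panels) on the 16 arrays, by compartment. Points are arrays, filled where above the control background of the array and open where at or under it, and bars are group means. 3xHMG-box2, PRL and BUBR1 drop from the micropylar and peripheral to the chalazal endosperm (differences of -4.20 and -2.39 for the first 2, and no exact size for BUBR1, whose chalazal points are all open).

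As a description of the contrast that chose members, the mean of the 3 endosperm regions exceeded the mean of both seed coat regions by log2 differences of 5.68 for 3xHMG-box2, 5.49 for AT3G44050, 5.26 for AT5G60930, 4.86 for AUR1, 4.07 for AUR2 and 1.26 for PRL. No fold is given for BUBR1, which was at background on all 5 seed coat arrays and on all 3 chalazal endosperm arrays. The other differences are those of the model, and except for PRL they have no exact size, since 3 or 4 of the 5 seed coat arrays were at background. For 5 of the 7 genes every endosperm array was above every seed coat array, a state reached by 4.02% of all tested probe sets. BUBR1 and PRL were the exceptions, because their chalazal endosperm values overlapped those of the seed coat.

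The chalazal endosperm (n = 3) was compared with the rest of the endosperm, taken as the mean of its other regions (n = 4 arrays), to see whether the pole next to the maternal supply carried these transcripts at the level of the rest of the endosperm. Of the 7 genes, 3 were lower and 0 higher: the chromosome protein gene 3xHMG-box2, the helicase gene PRL and the checkpoint gene BUBR1. Of all tested probe sets 37.6% passed the same test, 18% as lower and 19.6% as higher. The median difference was -1.13 over the 7 genes and 0.24 over all tested probe sets. All tests use limma with Benjamini-Hochberg adjustment over all 19475 probe sets, are two-sided, and share arrays with the contrast that chose members. The chalazal levels of BUBR1 and PRL were themselves among the earlier results.

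3xHMG-box2 fell by 4.20 ± 0.48 (log2 difference ± SE; adjusted p = 6.13e-08; 95% interval from -5.18 to -3.23), and all 3 chalazal arrays were below all 4 other endosperm arrays. PRL fell by 2.39 ± 0.44 (adjusted p = 7.84e-05; interval from -3.29 to -1.50), again without overlap. BUBR1 was at least 2.67-fold lower (adjusted p = 0.000441), a bound because all chalazal arrays were at background. The mitotic kinase and kinesin genes did not pass. AUR1 differed by -1.01 ± 0.52 (adjusted p = 0.131; interval from -2.08 to 0.07) and AUR2 by -1.13 ± 0.55 (adjusted p = 0.108; interval from -2.26 to 0.00), with overlapping arrays in both. AT3G44050 differed by -0.45 ± 0.42 (adjusted p = 0.417; interval from -1.31 to 0.42) and AT5G60930 by -0.78 ± 0.40 (adjusted p = 0.126; interval from -1.59 to 0.04). Their intervals still include falls of more than 1 on the log2 scale, so they are not shown to be equal in both regions.

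The scaling of the arrays bears on these calls. Without centring, the median over all tested probe sets moved from 0.24 to -0.03, and 6 of the 7 genes passed as lower, all but AT3G44050. With quantile normalisation the median was 0.08, and 4 passed, AT5G60930 being the added gene at -1.07 ± 0.38 (adjusted p = 0.0316). Over all probe sets the calls then stood at 2775 higher and 4269 lower without centring and 3211 higher and 3779 lower with quantile normalisation, against 3812 and 3509 with centring. The background bounds of the chalazal endosperm arrays, 161, 109 and 54.8, stood against 48.2 to 80.3 in the other endosperm regions, and their part in the result was not tested.

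A ratio taken within an array does not depend on the scaling between arrays. With AT3G44050 as the reference, chosen after the values were seen, the log2 ratio of 3xHMG-box2 averaged 0.95 in the micropylar and peripheral endosperm (0.75 to 1.24 over 4 arrays) and -2.89 in the chalazal endosperm (-3.49 to -2.15 over 3 arrays), a shift of -3.84. For BUBR1 the shift was -2.53 and for PRL -2.08, with no overlap of arrays in either. For AUR1, AUR2 and AT5G60930 the shifts were -0.59, -0.73 and -0.34, and the arrays overlapped. 3xHMG-box2, BUBR1 and PRL thus fell relative to the kinesin transcript of the same array. BUBR1 was at background in the chalazal endosperm, so its ratio there has no exact size.

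**Figure D2:**
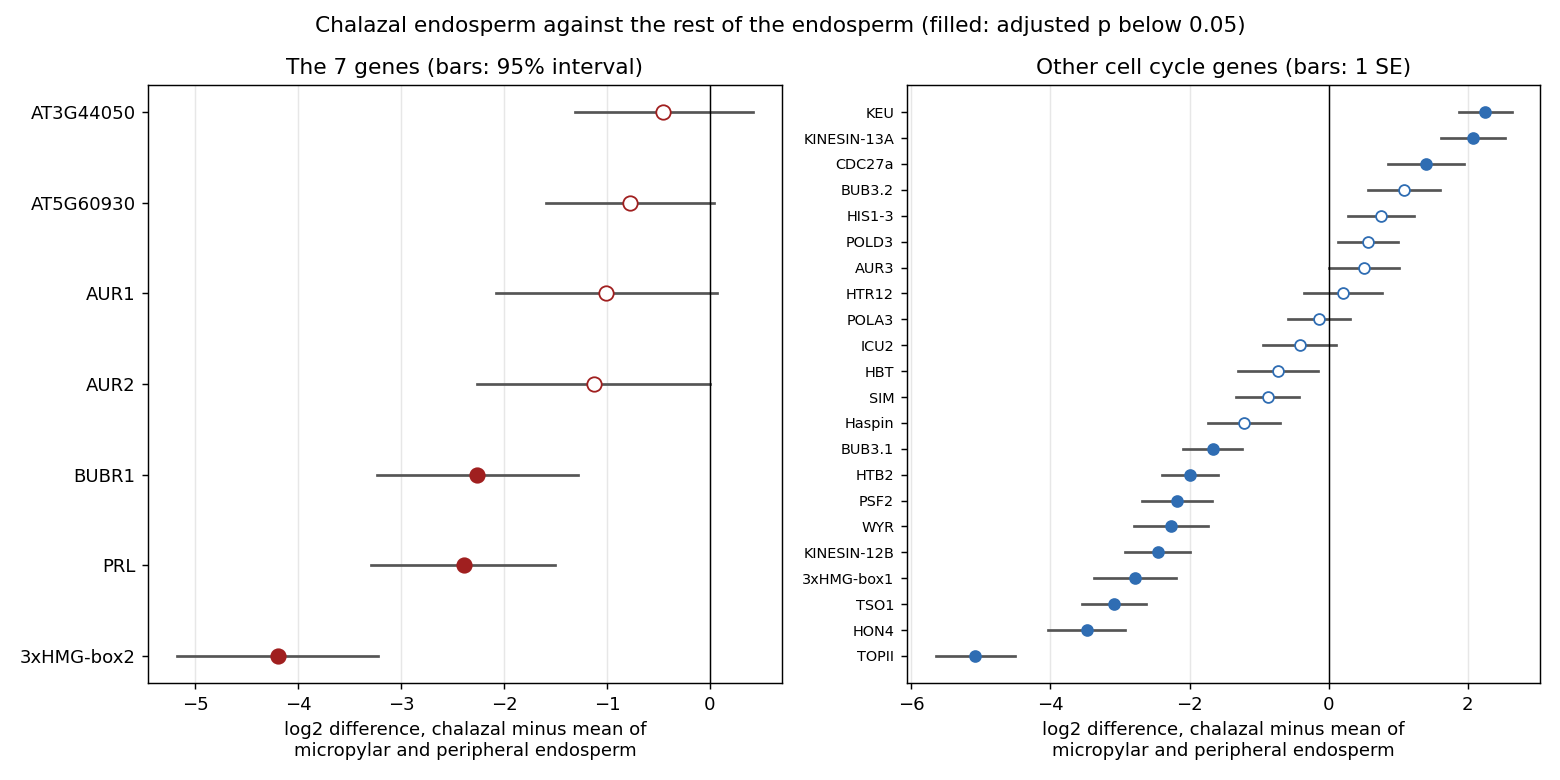
Log2 difference, chalazal endosperm minus the mean of the other endosperm regions, for the 7 genes (left, bars are 95% intervals) and for 22 other cell cycle genes (right, bars are 1 SE), with filled points where the adjusted p is below 0.05. 3xHMG-box2, PRL and BUBR1 are filled on the left, and on the right 9 genes are filled below 0 and 3 above.

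Between the other compartments with high levels, no member passed a test. In the micropylar against the peripheral endosperm, 0 of the 7 genes were called by limma, where 1.01% of all tested probe sets were. The differences ran from -0.08 for BUBR1 (95% interval from -1.36 to 1.20) to 0.71 for AUR2 (interval from -0.77 to 2.19). In the embryo proper against the micropylar endosperm 0 of 7 were called, with 2.78% over all probe sets, and differences ran from -1.0 for AUR1 (interval from -2.40 to 0.41) to 0.97 for BUBR1 (interval from -0.31 to 2.25). In the embryo proper against the peripheral endosperm 0 of 7 were called, with 5.72% over all, and differences ran from -0.61 for AUR1 to 0.89 for BUBR1 (interval from -0.39 to 2.17). In each of these 3 comparisons 0 of the 7 genes reached an unadjusted p of 0.05 either. Each interval of the 7 genes in these comparisons reached past 1 log2 unit on at least one side of 0, so a difference of that size was not detectable with 2 arrays a group.

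The chalazal seed coat (n = 3) was compared with the seed coat (n = 2), both maternal tissues. One kinesin gene was higher at the chalazal end and no other member passed, with 10.8% of all tested probe sets called, 5.21% as higher. AT5G60930 was higher (model difference 2.13 ± 0.48, adjusted p = 0.00285), with 2 of 3 chalazal seed coat arrays above background and both seed coat arrays under it. With the seed coat set at its background bound the fold was 1.64. That is not a strict minimum, since chalazal seed coat replicate 2 was itself at background. Leaving out seed coat replicate 2 ended the call (adjusted p = 0.0517). For AT3G44050 both seed coat arrays and chalazal seed coat replicate 1 were at background. AT3G44050 did not pass (model difference 1.51 ± 0.50, adjusted p = 0.0514, 1.84-fold with the seed coat set at its bound). It passed without centring (0.042), with an offset of 1 (0.0275) and with array weights (0.0263). Leaving out seed coat replicate 1 gave 2.34, which passed, and leaving out seed coat replicate 2 gave 0.69 (adjusted p = 0.647), and over all arrays left out in turn it passed 5 times of 16. PRL, the one member above background throughout both regions, differed by 0.06 ± 0.52 (95% interval from -1.0 to 1.13). Of the endosperm markers, AGL62 and MPC were at background on all chalazal seed coat arrays, and AGL62, AGL80 and MPC on both seed coat arrays. The summed signal of the 5 endosperm markers was 1176 to 2024 in the chalazal seed coat and 638 to 1085 in the seed coat, and that of the 5 embryo markers was 2378 to 3743 and 1221 to 1263. The embryo markers went opposite ways: LHW (model difference 2.84 ± 0.69, adjusted p = 0.00599) and PHV (2.36 ± 0.62, adjusted p = 0.0108) were higher in the chalazal seed coat and CR4 was lower (-3.90 ± 0.65, adjusted p = 9.48e-05). CR4 and CLV3 were at background on all 3 chalazal seed coat arrays. The part of embryo or endosperm RNA in the kinesin result was not tested.

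The difference between poles was then compared between endosperm and seed coat in one interaction term, the chalazal difference in endosperm minus that in seed coat. It was negative and past the threshold for 5 of the 7 genes, where 9.25% of all tested probe sets were called in that direction and 19.9% in either. The term was -3.89 ± 0.74 (adjusted p = 0.000374) for 3xHMG-box2, -2.95 ± 0.74 (adjusted p = 0.00522) for BUBR1 and -2.90 ± 0.62 (adjusted p = 0.00125) for AT5G60930. It was -2.46 ± 0.68 (adjusted p = 0.0104) for PRL and -1.96 ± 0.66 (adjusted p = 0.0338) for AT3G44050. AUR1 (-1.20 ± 0.82, adjusted p = 0.332) and AUR2 (-1.0 ± 0.86, adjusted p = 0.455) did not pass. Only the term of PRL, with sides of -2.39 in endosperm and 0.06 in seed coat, rests on arrays that were all above background. Of the 5 seed coat arrays, BUBR1 was at background on 5, 3xHMG-box2 on 4 and each kinesin gene on 3, both seed coat replicates included, and BUBR1 was also at background on all 3 chalazal endosperm arrays. The terms of these 4 genes are those of the model and have no exact size. For the kinesin genes the endosperm sides did not pass (-0.45 for AT3G44050 and -0.78 for AT5G60930). The seed coat sides of these kinesin genes were 1.51 and 2.13 in the model. For BUBR1 and 3xHMG-box2 a fall in seed coat could not show, so their terms cannot tell whether the tissues differ. Without seed coat replicate 1 PRL lost its call (adjusted p = 0.0807). AT3G44050 lost its call when micropylar replicate 1, either peripheral replicate, chalazal endosperm replicate 1, chalazal seed coat replicate 2 or 3, or seed coat replicate 2 was left out (adjusted p up to 0.331).

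**Figure D3:**
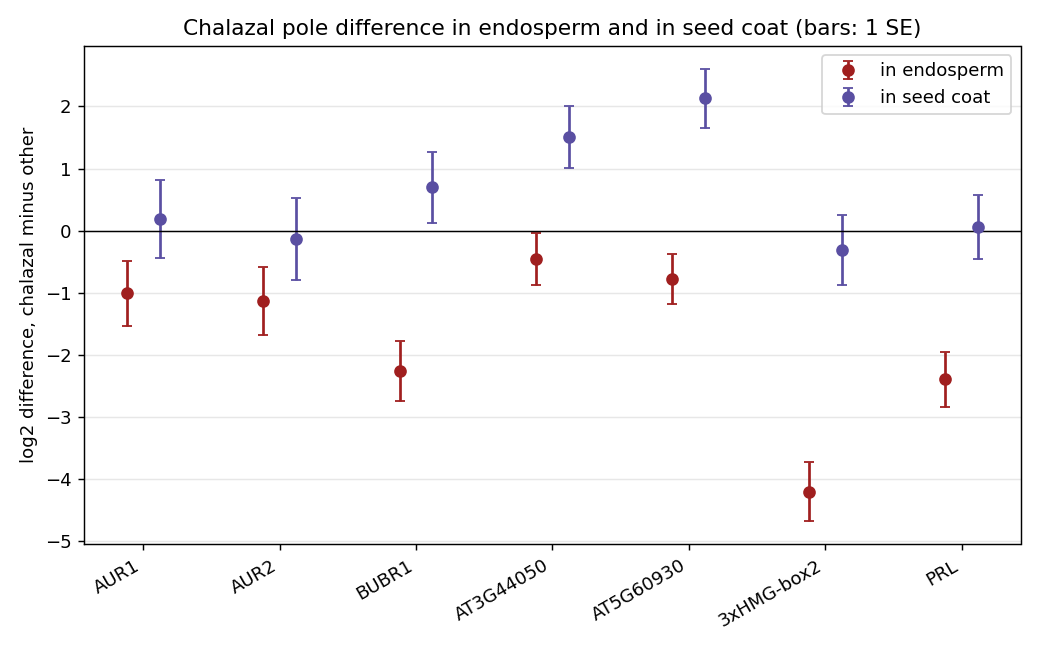
Log2 difference between the chalazal pole and the rest of the same tissue (vertical axis) for each of the 7 genes, in endosperm (red) and in seed coat (violet), with bars of 1 SE. PRL is near 0 in seed coat (0.06) and at -2.39 in endosperm. The seed coat points of the other 6 genes have no exact size, because at least 3 of the 5 seed coat arrays were at background, nor has BUBR1 in endosperm. With the seed coat set at its background bound the folds were 1.84 for AT3G44050 and 1.64 for AT5G60930.

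Whole seeds (n = 2) were compared with the unweighted mean of the 6 compartments. All 7 differences were negative, from -1.41 for AT5G60930 to -0.17 for AUR1, with a median of -0.35 against -0.23 over all tested probe sets. These are model differences, since the compartment means of all but PRL include seed coat values at background. AT5G60930 alone was called lower (-1.41 ± 0.40, adjusted p = 0.0412), where 0.935% of all tested probe sets were called lower and 3.57% either way. That call was lost without centring (adjusted p = 0.131), with quantile normalisation (0.0578) and with an offset of 1 (0.163). It was also lost on leaving out either embryo, peripheral endosperm, seed coat or whole-seed replicate or micropylar replicate 1 (adjusted p up to 0.483). The seed coat markers, at a summed signal of 44367 to 45473 in whole seeds, lay between the seed coat and the other compartments.

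The rest of the pathway was followed through lists of cell cycle genes, from which 22 other genes were named on the array and bright enough to be tested. The lists held no named tested cyclin, cyclin-dependent kinase, cohesin or condensin gene. Against the rest of the endosperm, the chalazal endosperm had 9 of the 22 lower and 3 higher, with a median difference of -0.81 against 0.24 over all tested probe sets. Over all tested probe sets 18% were called lower and 19.6% higher.

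Of the genes acting on DNA and chromatin, TOPII, the topoisomerase that untangles replicated DNA, had signals of 8372 to 9113 in the micropylar, 6104 to 6362 in the peripheral and 23.6 to 390 in the chalazal endosperm. Its model difference was -5.08 ± 0.57 (adjusted p = 5.84e-08), the largest of the 22, with 1 of 3 chalazal arrays at background. PSF2, a subunit of the GINS complex that works with the MCM ring, was at least 1.46-fold lower (adjusted p = 0.00109). The polymerase alpha genes ICU2 (-0.42 ± 0.52) and POLA3 (-0.14 ± 0.45) and the polymerase delta gene POLD3 (0.56 ± 0.43) did not pass. Of these replication genes TOPII and PSF2 passed as PRL had, and the 3 polymerase genes did not. 3xHMG-box1, the close relative of 3xHMG-box2, had signals of 726 to 1489 and 922 to 1109 in the micropylar and peripheral endosperm. In the chalazal endosperm it had 33.9 to 152, with 2 of 3 arrays above background (model difference -2.79 ± 0.59, adjusted p = 0.000435). The histone H2B gene HTB2 fell by 1.99 ± 0.40 (adjusted p = 0.000284). HON4, which encodes a protein related to linker histones, had a model difference of -3.48 ± 0.55 (adjusted p = 1.17e-05). Its 3 chalazal arrays ranged from 28.1 to 813, with 2 of them above background. The linker histone gene HIS1-3 (0.75 ± 0.48) and HTR12, which encodes the histone H3 of centromeres (0.20 ± 0.56), did not pass.

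Among the genes of mitosis, WYR, which encodes an INCENP-like partner of Aurora kinases, was lower (-2.27 ± 0.53, adjusted p = 0.00118), with 1 of 3 chalazal arrays above background. AUR3, the third Aurora gene, was not (0.51 ± 0.50, adjusted p = 0.442), at signals of 904 to 1496 in the chalazal and 864 to 950 in the other endosperm regions. The histone H3 kinase gene Haspin, at background on all 3 chalazal arrays, did not pass (a bound of at least 1.21-fold lower, adjusted p = 0.0662), and it passed as lower without centring (0.0314), with quantile normalisation (0.0195) and without the filter (0.0381). The checkpoint gene BUB3.1 fell by 1.67 ± 0.43 (adjusted p = 0.00288), from 1288 to 2847 in the other regions to 405 to 688, whereas its relative BUB3.2 differed by 1.08 ± 0.52 without passing. Of the genes of the anaphase-promoting complex, HBT did not pass (-0.73 ± 0.58) and CDC27a was higher by 1.40 ± 0.55 (adjusted p = 0.045). The CDC27a call ended when either embryo, peripheral or whole-seed array, micropylar replicate 1 or chalazal endosperm replicate 3 was left out (adjusted p up to 0.286). Of 6 other settings only quantile normalisation kept it (adjusted p up to 0.158 in the others).

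Division of the cell after mitosis gave calls in both directions. KINESIN-12B, a motor of the phragmoplast that builds the new wall, fell by 2.46 ± 0.47 (adjusted p = 0.000134), from 829 to 3598 in the other regions to 232 to 443. KEU, which encodes a Sec1-type protein for vesicle fusion at the cell plate, rose by 2.25 ± 0.38 (adjusted p = 3.14e-05), from 1227 to 2825 in the other regions to 6322 to 8267. KINESIN-13A, taken from the kinesin family and not from the list of spindle and phragmoplast genes, rose by 2.07 ± 0.46 (adjusted p = 0.000713). Of the regulators, TSO1, a CXC-domain protein gene, was at least 3.24-fold lower (adjusted p = 5.93e-06), and SIM, which encodes an inhibitor of cyclin-dependent kinases, was at background in the chalazal and micropylar endosperm.

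In the other comparisons few of the 22 genes passed. Between the micropylar and peripheral endosperm, the embryo proper and the micropylar endosperm, and both seed coat regions, 0 were called by limma, with 3, 3 and 4 at an unadjusted p under 0.05. Of all tested probe sets 1.01%, 2.78% and 10.8% were called there. The embryo proper against the peripheral endosperm and whole seeds against the compartments had 1 call each, where 5.72% and 3.57% of all tested probe sets were called. SIM was lower in the embryo proper than in the peripheral endosperm (model difference -2.68 ± 0.59, adjusted p = 0.00474), both embryo arrays being at background. Its signals were 159 to 206 in the peripheral endosperm and highest in the chalazal seed coat (1296 to 2345) and the seed coat (1641 to 2750). The part of seed coat RNA in the SIM result was not tested. The call ended without embryo proper replicate 2 or peripheral replicate 2 (adjusted p up to 0.0924). KINESIN-12B was lower in whole seeds than in the mean of the compartments (-1.79 ± 0.46, adjusted p = 0.0247), a call lost without either whole-seed array (up to 0.318), without centring (0.0825) or with an offset of 1 (0.0953).

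In the interaction of poles and tissues 7 of the 22 were lower and 1 higher. Over all 19475 tested probe sets 9.25% were called lower and 2083 probe sets higher. TOPII was lower (-3.42 ± 0.89, adjusted p = 0.00695) but not without seed coat replicate 1 (0.103), and HON4 (-3.08 ± 0.85, adjusted p = 0.0107) not without seed coat replicate 2 (0.065). 3xHMG-box1 (-3.06 ± 0.92, adjusted p = 0.0182) lost its call without chalazal endosperm replicate 1, chalazal seed coat replicate 1 or seed coat replicate 2 (up to 0.195) and with an offset of 1 (0.0622). It was above background on 1 of 3 chalazal seed coat and 0 of 2 seed coat arrays, so a fall in seed coat could not show. The 7 included PSF2, at background on all arrays of both seed coat regions, and KINESIN-12B, above it there on 1 seed coat array only. HON4, HTB2 and TSO1 were above background on all arrays of both regions. The higher gene was KEU (1.91 ± 0.59, adjusted p = 0.0226), which did not pass without chalazal seed coat replicate 3 or either seed coat array (up to 0.125) or with quantile normalisation (0.113).

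**Figure D4:**
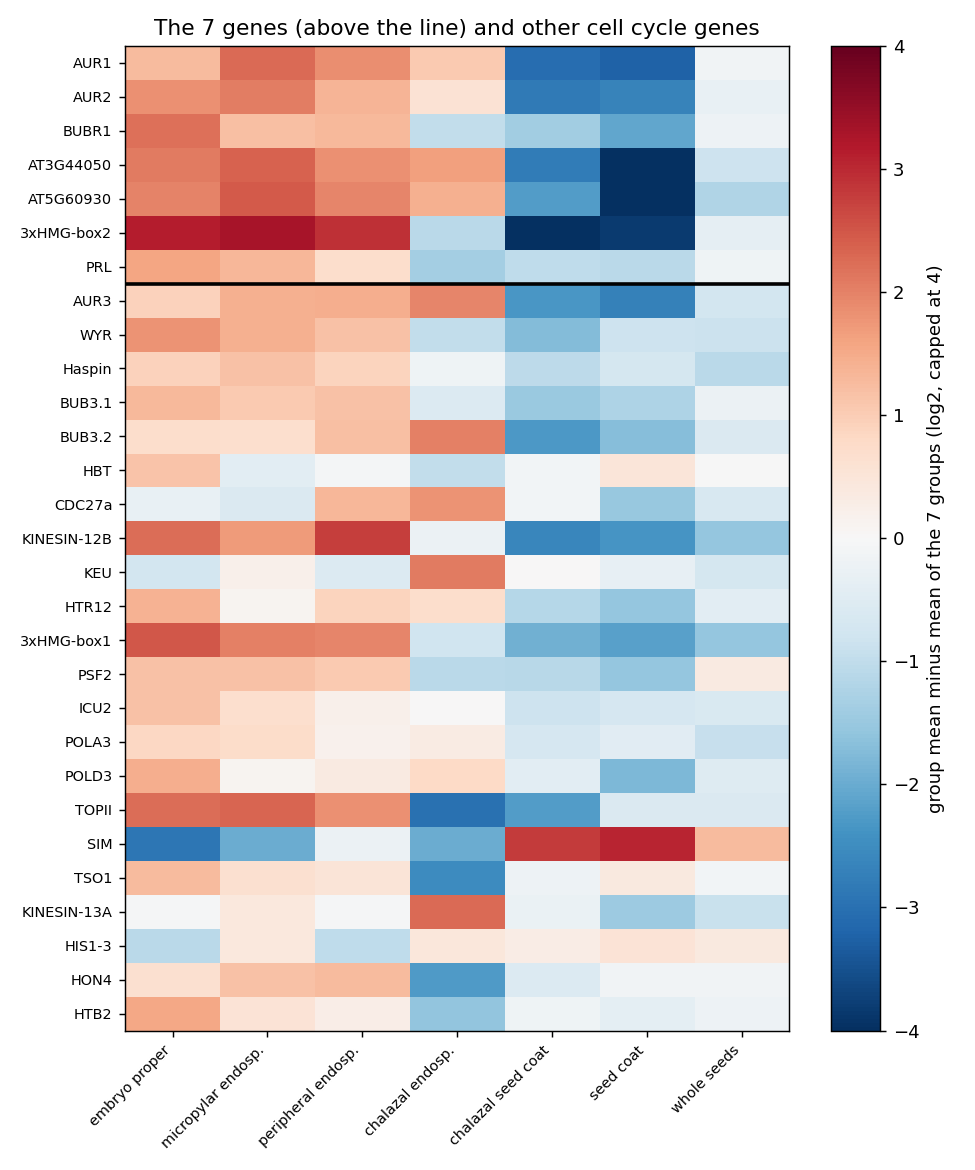
Mean log2 level of each gene in each of the 7 groups minus its mean over the groups (colour, capped at 4 on either side), with the 7 genes above the line and 22 other cell cycle genes below it. AUR1, AUR2 and both kinesin genes stay above their own mean in the chalazal endosperm, while BUBR1, 3xHMG-box2 and PRL are below theirs there, as are TOPII, TSO1 and HON4.

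How alike the 7 patterns were is given by Pearson's r of the centred log2 values over the 16 arrays, which share compartments and amplification, so r is a description. The kinesin genes were the closest pair (r = 0.98), and AUR1 and AUR2 reached 0.91. AUR1 and AUR2 had r of 0.90 to 0.94 with the kinesin genes. BUBR1 was closer to 3xHMG-box2 (0.92) and PRL (0.89) than to the kinase and kinesin genes (0.75 to 0.83), and PRL was least like the kinase and kinesin genes (0.54 to 0.61). 3xHMG-box2 also had r of 0.91 with AUR2, 0.89 with AUR1, 0.85 and 0.86 with the kinesin genes and 0.83 with PRL.

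Among 11267 other tested probe sets that name 1 gene, the ones most like AT3G44050 were UBC20, a ubiquitin-conjugating enzyme gene (r = 0.977), AT1G11950 (0.949) and AT2G33640 (0.946). AT5G33300 (0.973), AT2G33640 (0.957) and AT5G57410 (0.954) were most like AT5G60930. For 3xHMG-box2 they were AT3G27330 (0.968), AT4G35730 (0.967) and AT5G17160 (0.966). AT3G27330 was also among the 3 most like BUBR1 (0.937), beside AT5G03870 (0.942) and AT1G63100 (0.934). Other neighbours were shared too: AT2G33640 by both kinesin genes, AT1G11950 by AT3G44050 and AUR1, and AT4G35730 by 3xHMG-box2 and AUR1. AUR1 had AT4G35730 (0.940), AT3G19910 (0.938) and AT1G11950 (0.930), and AUR2 had AT1G47900 (0.951), AT4G22860 (0.949) and CFM3A (0.935). The values nearest to PRL were lower, with AT4G15830 at 0.915 and AT3G28900 and AT1G05910 at 0.914.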

How the data were processed

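Per the submitters' processing notes, the authors made the array values with Affymetrix GCOS (version and settings not given in the sources used here). They deposited linear signal intensities, and the mean without the lowest and highest 2% was 500.04 to 500.08 on every array. The table holds 22810 probe sets, 64 of them controls. Of the 22746 others, 13513 name 1 gene, 503 several and 8730 none in the platform annotation. Of the 13513, 13436 matched a locus of the TAIR10.1 gene table, used for names only. No array pair held identical values (0 of 120). Sequences and coordinates were not used here.

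Values were log2(signal + 30.1751), with the 25th percentile of the whole table as offset, less each array's median. Tested probe sets passed the 40th percentile of its array on 2 or more arrays, which left out 3271. One model with 7 group means was fitted with limma 3.58.1 (eBayes with trend) in R 4.3.3, tested on simulated data, with a threshold of 0.05 after Benjamini-Hochberg adjustment. An "at least" fold sets the low side at the background bound. The kinesin folds in seed coat were computed likewise, but their high side held an array at background, so they are not called minimums. Figures and summaries used Python 3.11.15.

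Named genes are the 7 genes, for each the 3 probe sets of highest Pearson r, and up to 4 genes per pathway list and comparison with the smallest adjusted p. The genes, lists and tests were chosen with earlier results of these data known. BRICK1 was dropped from the checkpoint list because its alias BRK1 names another protein. Alternatives were no centring, quantile normalisation, an offset of 1, no filter, array weights, a replicate block, and leaving out each array.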

Additional observations from a re-analysis of the deposited data

Results flagged for a closer look

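For 5 of the 7 genes the interaction term, the chalazal difference in endosperm minus that in seed coat, was negative and past the threshold. The log2 interaction was -3.89 for 3xHMG-box2, -2.95 for BUBR1, -2.90 for AT5G60930, -2.46 for PRL and -1.96 for AT3G44050, and 9.25% of all tested probe sets were called in that direction. Seed coat signals were at background on 5 of 5 arrays for BUBR1, on 4 for 3xHMG-box2 and on 3 for each kinesin gene. BUBR1 was at background on all 3 chalazal endosperm arrays too. These 4 sizes are therefore those of the model and not exact. For AT3G44050 and AT5G60930 the seed coat sides were 1.51 and 2.13, and the endosperm sides of -0.45 and -0.78 did not pass. For BUBR1 and 3xHMG-box2 a fall in seed coat could not show, so their terms cannot tell whether the tissues differ. AT3G44050 lost its call on leaving out any of 7 arrays (adjusted p up to 0.331). PRL, above background on all 16 arrays, differed by -2.39 in endosperm and 0.06 in seed coat. Its term ran from -2.75 to -2.02 on leaving out 1 array, and its call ended without seed coat replicate 1 (adjusted p = 0.0807). No group had enough arrays for a test of single deviating arrays.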

How the results depend on the processing

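The tests on the 7 genes and the chalazal comparison of the 22 other genes were recomputed under 6 other settings and with each of the 16 arrays left out. The 3 calls of the chalazal against the other endosperm (3xHMG-box2, PRL and BUBR1) kept their direction and threshold in all of them; the count of called genes was 6 without centring and 3 to 4 on leaving out 1 array. Of the 22 other cell cycle genes 9 to 10 were called lower and 2 to 4 higher on leaving out 1 array. In the chalazal seed coat against the seed coat, 2 genes were called without centring, with an offset of 1 and with array weights, AT3G44050 being added, and 0 to 2 on leaving out 1 array. In whole seeds 0 were called without centring, with quantile normalisation and with an offset of 1, and 0 to 1 on leaving out 1 array. The interaction gave 5 calls in all 6 settings and 4 to 5 on leaving out 1 array.

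The replicate numbers did not pair the samples: deviations of same-numbered arrays from their group means correlated between -0.044 and 0.096, over 21 pairs of groups for each number. With the replicate block the counts of called members stayed at 3, 0, 0, 0, 1, 1 and 5 in the order of the comparisons above, and CDC27a fell short in the chalazal comparison (0.99, adjusted p = 0.158).

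All reversals were in differences that did not pass the test. In embryo proper minus micropylar endosperm, AUR2 was 0.04 (quantile) and 3xHMG-box2 0.05 (no centring) and 0.03 (quantile). In embryo proper minus peripheral endosperm, AT5G60930 was -0.01 (offset of 1). In chalazal seed coat minus seed coat, AUR1 was -0.04 and PRL -0.27 with the block, and PRL -0.05 without the filter. In whole seeds, AUR1 was 0.20 (no centring) and 0.18 (offset of 1), AUR2 0.02 (no centring), BUBR1 0.11 (no centring) and 0.01 (offset of 1), and PRL 0.19 (no centring) and 0.16 (quantile). HTR12 was -0.06 (no centring) and -0.35 (block) in the chalazal endosperm. On leaving out 1 array the following ranges crossed 0. In micropylar minus peripheral endosperm AUR1 ran from -0.46 to 1.23 and BUBR1 from -0.40 to 0.24. In embryo proper minus micropylar endosperm AUR2 ran from -0.67 to 0.23 and PRL from -0.05 to 0.54. In embryo proper minus peripheral endosperm AUR2 ran from -0.07 to 1.05, AT5G60930 from -0.23 to 0.25 and 3xHMG-box2 from -0.08 to 0.51. In chalazal seed coat minus seed coat AUR1 ran from -0.35 to 0.74, AUR2 from -1.08 to 0.83, 3xHMG-box2 from -0.67 to 0.35 and PRL from -0.37 to 0.36. In whole seeds AUR1 ran from -0.35 to 0.01, BUBR1 from -0.65 to 0.14, 3xHMG-box2 from -0.92 to 0.10 and PRL from -0.58 to 0.21. In the chalazal comparison HTR12 ran from -0.35 to 0.57 and POLA3 from -0.34 to 0.06. The cause was not tested.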
